A study of Homo sapiens with 4 samples.

Results

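Expressed long intergenic noncoding RNA entries, those carrying a numbered LINC symbol, were examined in K562-U2AF1 S34F cells treated with the compound SF1-8 or with its solvent DMSO. A table entry was included when its name was a single LINC symbol and its estimated read count was at least 100 in both DMSO libraries or in both SF1-8 libraries. The rule selected 153 of the 2341 LINC entries (6.54%), under 125 of 2075 symbols, in a table of 64873 entries. K562 is an erythroleukemia line, and all 4 libraries came from a derivative that overexpresses U2AF1 carrying the S34F change. The DMSO group held 2 libraries, and the SF1-8 group held 2 libraries from cells exposed to 30 uM for 48 h. Cells without the mutant allele were not among the samples, so the comparison is between treated and untreated cells of 1 genotype. Nothing in the labels says whether the 2 libraries of a group came from separate cultures, so every p-value measures only the spread between these libraries, which may be technical.

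LINC symbols are given by the human gene nomenclature to long RNA genes that lie between coding genes and had no described function when they were named. Such RNAs are mostly made by RNA polymerase II, are often spliced and polyadenylated, and are generally less abundant and more restricted to cell types than mRNAs. U2AF1 is the part of the U2AF splicing factor that reads the AG at the 3′ end of introns, and the S34F change alters which 3′ splice sites it favours. The study asked how SF1-8, a ligand of the U2AF homology domain of U2AF1, altered the expression of genes and transcripts in these cells.

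Most expressed LINC entries had similar counts with and without SF1-8, and the largest change that passed the test sat in 1 entry of LINC01399. Of the 125 entries at 100 counts in both groups, 111 had an absolute log2 fold change under 0.5. By edgeR, the main test, the minus-strand entry of LINC01399 alone passed an adjusted p of 0.05, and it rose 7.20-fold. A second LINC01399 entry, on the opposite strand, was present in both DMSO libraries and had a count of 0 in both SF1-8 libraries, so that the sum over all entries of the symbol was nearly level. LINC01169 had the same arrangement of opposite-strand entries, with fitted changes of opposite sign that did not pass the adjusted test by edgeR but did by DESeq2.

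The libraries held 45331271 to 67311734 counts on named entries. Erythroid genes marked the cells as labelled, with 7 of 8 K562 marker entries at 1 FPKM or more in every library, where FPKM is fragments scaled to transcript length and library size. The summed FPKM of 7 fibroblast markers was 13.1 and 7.86 with DMSO and 5.75 and 4.23 with SF1-8. The collagens COL1A1, COL1A2 and COL3A1 were lower in both SF1-8 libraries. DCN, LUM and PDGFRB were also lower in both, but below 0.2 FPKM throughout. The entry holding PDGFRA was merged with other genes, so its value is not that of PDGFRA alone. It was at 3.33 and 3.22 with DMSO and 3.48 and 3.67 with SF1-8. T cell markers summed to 6.10 and 5.18 FPKM with DMSO and to 4.42 and 4.23 with SF1-8, mostly CD3D. Monocyte markers summed to 4.23 to 5.84 FPKM, epithelial markers to 14.3 to 17.2, and MS4A1 and CD79A of B cells were at or near 0. The part of these shifts in the results below was not tested.

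The RefSeq windows from 250 bases before to 50 bases after the RefSeq start (build GRCh38.p14) were read for several members, not all of them shown. Capitals mark 3 promoter motifs on either strand, and overlapping matches appear as 1 run. The GC box was searched as GGGCGG. The box bound by NF-Y was searched as CCAAT. The TATA element was searched as TATAAA. LINC01003 was among the highest in FPKM and level between groups, LINC00667 was lower with SF1-8, and LINC01232 reached the count rule with SF1-8 only. LINC01943 was high in 1 SF1-8 library. Their windows lie at chr7:152463874-152464173 (plus), chr18:5237850-5238149 (plus), chr13:99499257-99499556 (minus) and chr2:87459047-87459346 (minus). The LINC01003 and LINC00667 windows lay wholly inside their counted entries, which began at chr7:152463786 and chr18:5237826, and so were not upstream of them.
LINC01003: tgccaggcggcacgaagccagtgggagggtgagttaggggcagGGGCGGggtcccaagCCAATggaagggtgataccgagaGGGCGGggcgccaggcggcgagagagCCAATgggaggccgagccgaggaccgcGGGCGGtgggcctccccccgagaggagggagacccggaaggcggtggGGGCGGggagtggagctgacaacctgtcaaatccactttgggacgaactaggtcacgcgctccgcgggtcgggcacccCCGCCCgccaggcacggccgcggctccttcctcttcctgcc
LINC00667: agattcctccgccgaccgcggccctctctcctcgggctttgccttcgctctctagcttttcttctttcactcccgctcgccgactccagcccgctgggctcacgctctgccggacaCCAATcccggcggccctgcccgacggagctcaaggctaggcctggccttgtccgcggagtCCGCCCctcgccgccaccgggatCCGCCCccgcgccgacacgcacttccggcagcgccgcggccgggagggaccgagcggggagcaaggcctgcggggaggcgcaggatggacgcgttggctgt
LINC01232: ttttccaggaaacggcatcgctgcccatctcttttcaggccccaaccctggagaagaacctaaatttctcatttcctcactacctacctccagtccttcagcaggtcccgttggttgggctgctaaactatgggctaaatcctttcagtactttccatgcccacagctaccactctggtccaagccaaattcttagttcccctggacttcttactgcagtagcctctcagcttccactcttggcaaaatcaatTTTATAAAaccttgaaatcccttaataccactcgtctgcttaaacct
LINC01943: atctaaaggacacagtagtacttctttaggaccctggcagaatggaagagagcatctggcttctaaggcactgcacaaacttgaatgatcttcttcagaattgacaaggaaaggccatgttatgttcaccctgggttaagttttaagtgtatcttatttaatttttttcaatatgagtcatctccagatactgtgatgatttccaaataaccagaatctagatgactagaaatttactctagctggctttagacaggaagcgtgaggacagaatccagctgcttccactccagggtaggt

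The LINC01003 and LINC00667 windows were rich in G and C, at 71.7% and 72%, with 28 and 38 CpG dinucleotides. LINC01232 had 46.7% G and C with 4 CpGs, and LINC01943 had 40.3% with 1 CpG and none of the letters searched. The windows of LINC02610 and LINC02211, not shown, had 54.7% and 72% G and C with 21 and 27 CpGs. Neither of them held any of the letters searched. Among member symbols, 67 had at least 1 RefSeq window, 76 windows in all, with a median of 55.3% G and C and 11 CpGs. The 1663 windows of other LINC symbols had medians of 47.7% and 4, and all 35116 windows had medians of 58.7% and 14. A GC box was found in 39.5% of member windows, 18% of other LINC windows and 45.0% of all windows. TATAAA was found in 18.4%, 16.2% and 11.5% of the same sets, CCAAT in 40.8%, 35.8% and 34.6%, and the CRE palindrome TGACGTCA in 2.63%, 1.08% and 1.85%. A match is only a run of letters in these windows and no statement about a bound factor.

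The 153 entries were far from uniform as transcripts. Of these, 115 held an annotated transcript, 14 were assembled from the reads on a known strand without an annotated transcript, and 24 were assembled without a strand, all of them as 1 unspliced block. The assembled stranded entries ran along the gene's annotated strand in 7 cases and against it in 7. Median length, as implied by the ratio of count to FPKM, was 5754 bases for the annotated entries and 1842 bases for the unstranded ones, and it ranged from 216 to 33447 bases over all 153. An entry without an annotated transcript was more common here (24.8%) than among antisense RNA entries chosen by the same count rule (9.49% of 253), and the difference was not tested.

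Member symbols had a higher median of annotated exons than the LINC symbols not selected, and more often 1 exon only or a divergent coding neighbour. In the GENCODE annotation, version 29, all 125 symbols were found, with a median of 4 exons in their longest-spliced transcript, and 15 symbols had 1 exon only. The 1943 other LINC symbols that were found had a median of 3 exons, and 48 of them had 1 exon only. Member symbols had a median of 3 annotated transcripts against 1, so their highest exon number was taken over more transcripts. A start within 1000 bases of a coding gene's start on the opposite strand was annotated for 13 member symbols (10.4%) and for 36 of the others (1.85%), and these differences were not tested. Of the 2341 LINC entries, 1420 had a count of 0 in every library and 768 were above 0 without reaching the rule. By chromosome, members were most frequent on chromosome 1, with 18 of 252 LINC entries, while chromosomes 7 and 21 held 12 of 49 and 11 of 67.

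Levels were low. Mean FPKM over the 4 libraries had a median of 1.12, with quartiles of 0.738 and 1.74, and 91 of 153 entries reached 1 FPKM while 6 reached 5. Entries of single protein-coding symbols chosen by the same count rule had a median of 5.09 FPKM and antisense entries one of 1.15. The members took 0.206% and 0.187% of the counts in the DMSO libraries and 0.191% and 0.208% in the SF1-8 libraries, and the groups overlapped. Together they held 87.2% to 90.0% of all counts on LINC entries, and the 10 highest members held 42.5% to 45.8% of the members' counts.

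The highest mean FPKM was that of a 216-base assembled entry of LINC01667 at chr21:9837149-9837364 on the plus strand, against the direction of the annotated gene. Its FPKM was 20.4 and 14.7 with DMSO and 12.7 and 11.3 with SF1-8, a log2 fold change of -0.51 (SE 0.234, adjusted p = 0.970 by edgeR). The groups did not overlap, but this short arm has near-identical copies elsewhere in the genome, which makes the value uncertain, and the FPKM came from only 198 to 256 counts. The annotated LINC01667 entry on the minus strand had 7.09, 6.47, 6.43 and 6.55 FPKM in the libraries DMSO 1, DMSO 2, SF1-8 1 and SF1-8 2.

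The other leading entries were level. LINC01003, a 1-exon RNA at chr7:152463786-152465549, had 9.31 and 11.0 FPKM with DMSO and 10.6 and 9.06 with SF1-8. LINC01694 had 9.67 and 9.89 FPKM with DMSO and 10.2 and 9.71 with SF1-8. LINC01311, annotated as an antisense RNA, had 9.42 and 9.31 against 9.29 and 9.26. In all of these the groups lay within a narrow range of each other. LINC01492, an unstranded block at chr9:103204136-103205951, had 8.79 and 6.73 FPKM with DMSO and 7.58 and 8.37 with SF1-8, and the groups overlapped.

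**Figure D1:**
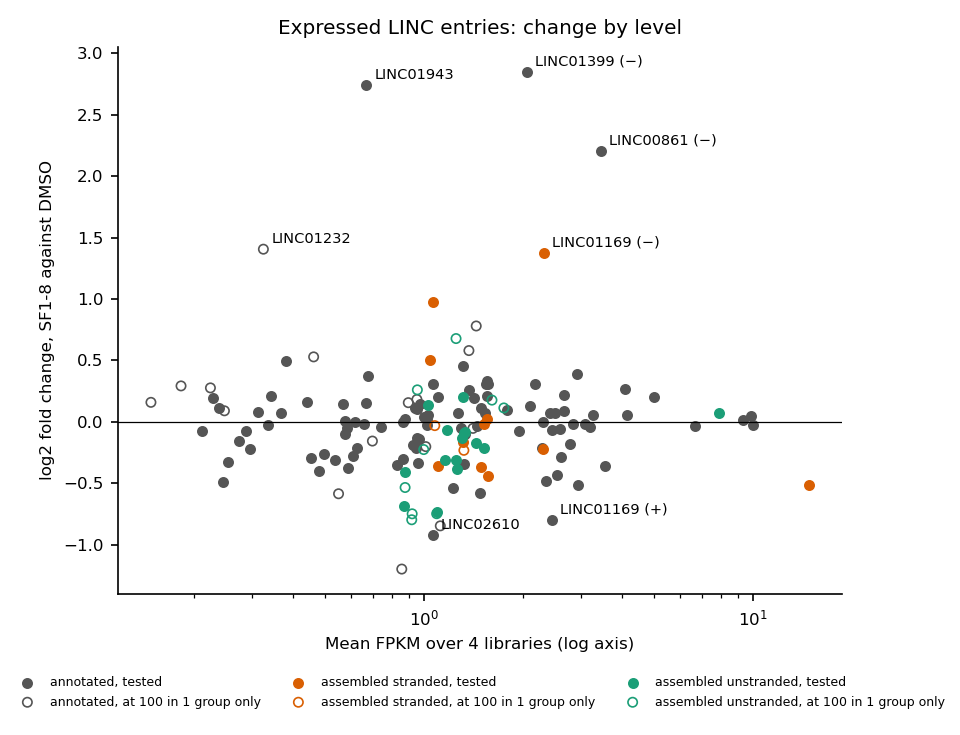
Log2 fold change of SF1-8 against DMSO (vertical axis) by mean FPKM over 4 libraries (horizontal log axis) for 152 LINC entries. Colours give the kind of entry, filled points are entries at 100 counts in both groups and open points reached 100 in 1 group only. The plus-strand entry of LINC01399, at 0 in both SF1-8 libraries, is not drawn. Most points lie near 0 over the whole range of levels.

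Across the 125 entries tested, the median log2 fold change was -0.023, against -0.0106 over all 26167 entries that passed the filter on low counts. The fold change was above 0 for 54 and below 0 for 71 (48.4% of all entries tested were above 0). After Benjamini-Hochberg adjustment of edgeR's quasi-likelihood p-values over all entries, 1 of 125 (0.8%) was under 0.05, against 0.042% of all entries. It was a rise, as were 0.0191% of all entries. The next smallest adjusted p-values among the 125 were 0.423 and 0.970. At an unadjusted p under 0.05 there were 9 (7.2%), of which 6 were lower and 3 higher, where 4.33% of all entries passed. The SF1-8 libraries were both below the DMSO libraries for 27 entries (21.6%, against 18.1% of all) and both above for 17 (13.6%, against 17.3%), and the other 81 overlapped. An absolute log2 fold change of 1 or more was seen in 4 of the 125 (11.6% of all entries). The shares over all entries include entries with counts below 100, so they are not matched to the 125 in count. All 153 members passed the filter on low counts, but the 28 that reached 100 in 1 group only were chosen on the counts of that group, so they were not tested.

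LINC01399 was annotated as a transcribed processed pseudogene on the minus strand of chromosome 22. Its minus-strand entry, chr22:35119824-35231056, covered the annotated gene. The counts were 309 and 405 with DMSO and 3073 and 2941 with SF1-8. In counts scaled to library size (CPM, with TMM factors) this was 6.46 ± 0.0492 with DMSO and 46.5 ± 0.549 with SF1-8 (SD, n = 2 each), and the groups were far apart. The log2 fold change was 2.85 (SE 0.109, adjusted p = 0.0148 by edgeR), and both SF1-8 libraries were higher than both DMSO libraries. With a replicate left out the adjusted p stayed under 0.05, except that it was 0.0572 without DMSO replicate 1. By limma it was 0.383 on log2(FPKM + 1) and 0.292 on log2(FPKM + 0.1).

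The plus-strand entry of LINC01399, at chr22:35183713-35191495, had 1903 and 2348 counts in the DMSO libraries, and its count was 0 in either SF1-8 library. It reached the count rule through DMSO alone, so its difference was partly set by the selection and no test is given. Against a floor of 3 counts per library, it was at least 820-fold lower with SF1-8 than its DMSO mean of 38.6 CPM. The entry was a single block of 7769 bases with no annotated transcript, and it lay wholly within the intron between exons 2 and 3 of the annotated transcript (chr22:35172461-35194856), holding 0 annotated exon bases. The minus-strand entry had an implied length of 10206 bases, whereas the annotated exons of the gene add up to 806.

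The annotated LINC01399 transcript joins its exons across that intron as follows, with the last 30 bases of exon 2 in lower case and the opening 30 of exon 3 in capitals.
LINC01399: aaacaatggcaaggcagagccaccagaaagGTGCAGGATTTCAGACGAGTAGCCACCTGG

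Summed over its 7 rows, LINC01399 had 2373 and 2976 counts with DMSO and 3304 and 3101 with SF1-8. This gave a log2 fold change of 0.030 (SE 0.0884, adjusted p = 0.986 by edgeR on the table with LINC rows summed), and the direction was not fixed, being -0.010 without DMSO replicate 2. The counts lost from the plus-strand row were thus close in number to those gained on the minus-strand row. Whether reads were assigned to entries by strand is not given in the sources used here, and without it the reads of overlapping opposite-strand entries cannot be told apart.

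LINC01169 lies on the plus strand of chromosome 15, and its plus-strand entry, chr15:66582110-66677003, began at the annotated start. The counts were 6158 and 6886 with DMSO and 4754 and 4129 with SF1-8, with no overlap between groups. The log2 fold change was -0.80 (SE 0.117, adjusted p = 0.423 by edgeR). The minus-strand entry, chr15:66592475-66620881, lay within the first annotated intron (chr15:66582249-66664361) and had 1339 and 4067 counts with DMSO and 8192 and 7358 with SF1-8. A log2 fold change of 1.38 was fitted (SE 0.382, adjusted p = 0.970 by edgeR). It ran from 0.90 to 2.10 with a library left out, and without DMSO replicate 2 it was 2.10 with an adjusted p of 0.0492 by edgeR. By DESeq2 the adjusted p was 0.000139 for the plus-strand entry and 0.0149 for the minus-strand entry. The DMSO libraries differed from each other more than the SF1-8 libraries did. The implied lengths were 30701 and 28360 bases, against 833 annotated exon bases, so both entries extended well into intronic sequence. The sum was 7497, 10953, 12946 and 11487 counts, with a log2 fold change of 0.19 (SE 0.0886, adjusted p = 0.970 by edgeR).

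**Figure D2:**
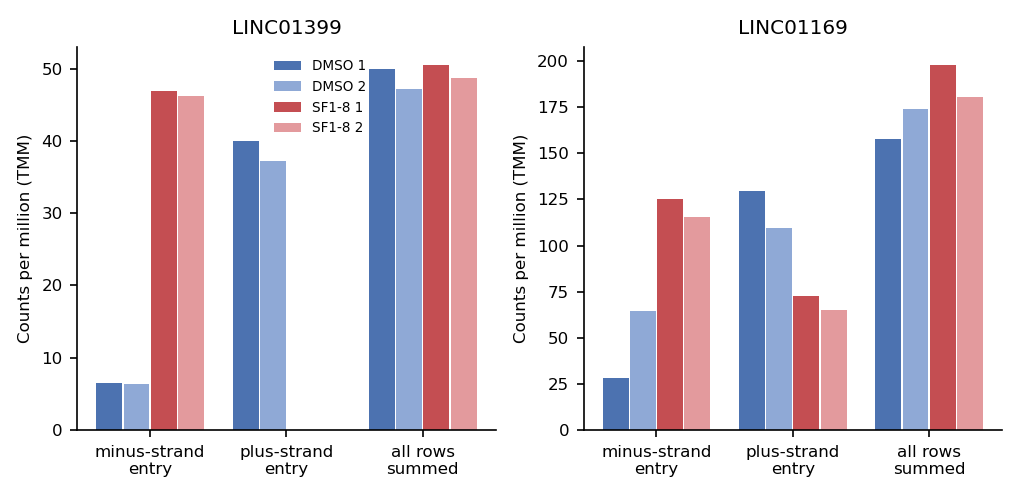
CPM (TMM-scaled) of the minus-strand entry, the plus-strand entry and the sum over all rows of LINC01399 (left) and LINC01169 (right), 1 bar per library. For LINC01399 the minus-strand bars are near 6.5 with DMSO and 46 to 47 with SF1-8, the plus-strand bars are absent with SF1-8, and the summed bars are nearly level.

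**Figure D3:**
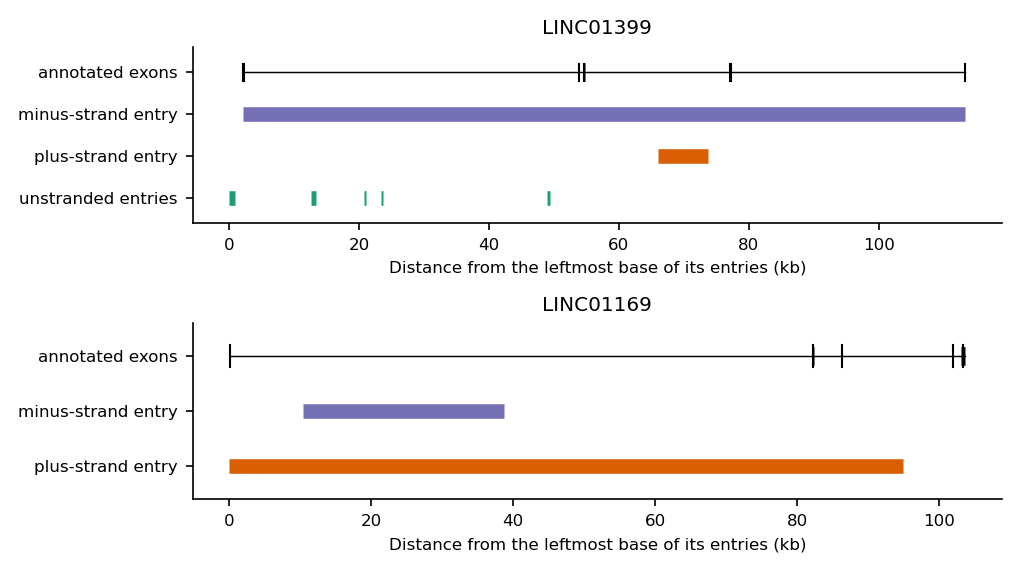
Positions of annotated exons and of the table's entries for LINC01399 and LINC01169, as distance in kb from the leftmost base of their entries. Exons are widened to be visible. The plus-strand entry of LINC01399 and the minus-strand entry of LINC01169 each lie between neighbouring annotated exons.

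Several of the lower entries came from annotated, spliced RNAs, and none passed the adjusted test. LINC00667, which starts at a GC-rich window shown above, had 18.6 and 18.5 CPM with DMSO and 11.7 and 13.8 with SF1-8, a log2 fold change of -0.54 (SE 0.142, unadjusted p = 0.0119 and adjusted p = 0.970 by edgeR). LINC01128 had 40.4 and 29.6 CPM against 22.2 and 24.6 (log2 fold change -0.58, SE 0.176). LINC02610 had 5.42 and 8.23 CPM against 3.50 and 3.73 (log2 fold change -0.92, SE 0.259). In all of these both SF1-8 libraries lay below both DMSO libraries, which 18.1% of all entries did.

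Unstranded blocks were among the lowest fitted values, and none passed the adjusted test. The block of LINC00383 at chr13:69312842-69316514 had 263 and 273 counts with DMSO and 182 and 213 with SF1-8 (log2 fold change -0.69, SE 0.235). That of LINC01194 at chr5:12712318-12716039 had 360 and 327 counts against 200 and 295 (log2 fold change -0.73, SE 0.308), and both had an adjusted p of 0.970 by edgeR, while the annotated LINC01194 entry had a log2 fold change of 0.10. Of the 15 unstranded entries tested, 3 had a log2 fold change above 0. The median of the 15 was -0.18, and it was not tested. For the 99 annotated entries tested the median was -0.0045 and 47 were above 0. Replicates of the unstranded entries were also farther apart, by a median of 0.54 (DMSO) and 0.39 (SF1-8) on the log2 scale, against 0.25 and 0.21 for the annotated entries.

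LINC00958, an RNA described in several carcinomas, was the most abundant of the higher entries in counts. It had 167 and 169 CPM with DMSO and 190 and 196 with SF1-8, with no overlap and close replicates. The log2 fold change of 0.20 (SE 0.0668) had an unadjusted p of 0.0276 and an adjusted p of 0.970 by edgeR. LINC01517, as a minus-strand assembled entry, had 2.82 and 2.86 CPM against 3.57 and 4.47, a log2 fold change of 0.50 (SE 0.225, adjusted p = 0.970 by edgeR).

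LINC00623, in a duplicated region of chromosome 1, had entries that leaned in opposite directions on the same strand. The longer entry by span, chr1:120913184-121009109, had 8.98, 8.92, 6.61 and 6.23 CPM in DMSO 1, DMSO 2, SF1-8 1 and SF1-8 2, a log2 fold change of -0.48 (SE 0.155). An assembled entry within it, chr1:120924230-120931401, had 2.38, 10.0, 9.04 and 15.4 CPM, a log2 fold change of 0.97 (SE 0.675), which ran from 0.29 without DMSO replicate 1 to 2.36 without DMSO replicate 2. The latter was low in DMSO 1 alone, and its other 3 libraries overlapped in range. Reads of near-identical copies in this region may have been shared between them, so both values are uncertain.

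**Figure D4:**
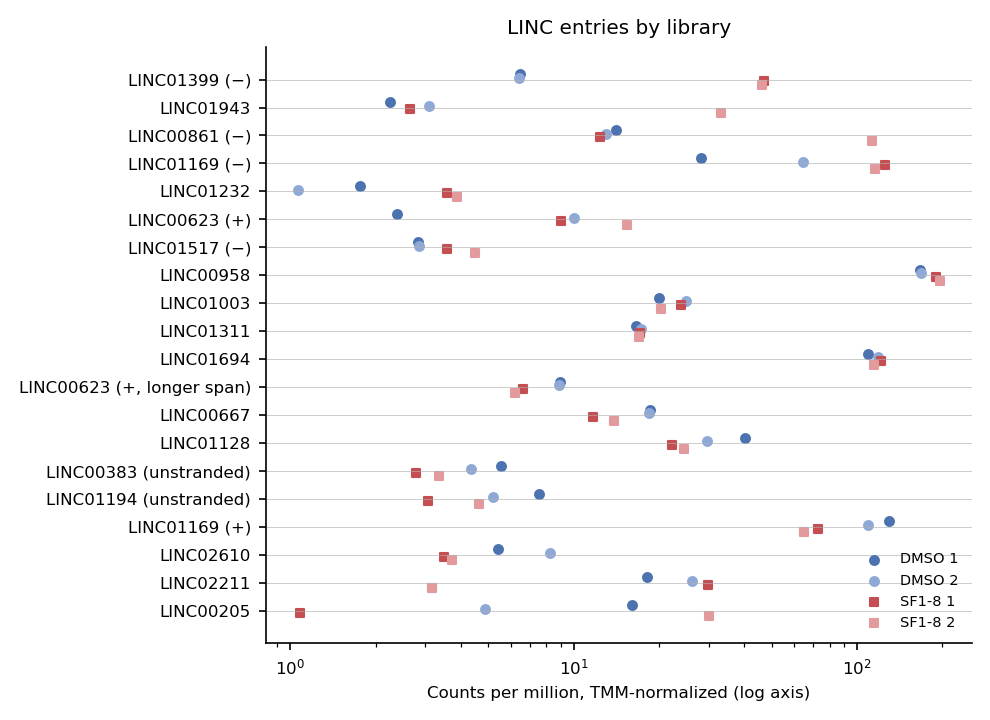
CPM (TMM-scaled, log axis) of 20 LINC entries in each library, circles for DMSO and squares for SF1-8. The minus-strand LINC01399 entry separates the groups with close replicates, while LINC01943, LINC00861, LINC02211 and LINC00205 have 1 library far from its replicate.

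A large fold change in several entries rested on 1 library. LINC01943, at chr2:87439523-87459044, had 2.25, 3.08, 2.64 and 33.1 CPM in DMSO 1, DMSO 2, SF1-8 1 and SF1-8 2, so that only the last was high. The log2 fold change of 2.74 (SE 1.12, adjusted p = 0.970 by edgeR) became -0.014 without SF1-8 replicate 2. The merged entry that overlaps it on the plus strand and holds CYTOR, another long noncoding RNA, had 4183, 6014, 7056 and 6852 counts and no such jump.

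The minus-strand entry of LINC00861, on chromosome 8, likewise had 14.1, 13 and 12.4 CPM in the first 3 libraries and 113 in SF1-8 2. The log2 fold change of 2.21 (SE 0.963, adjusted p = 0.970 by edgeR) became -0.13 without SF1-8 replicate 2. Entries overlapping it, AC016074 with 2817, 3664, 3522 and 3495 counts and the pseudogene SOD1P3 with 896, 1117, 1184 and 1200, stayed in narrow ranges.

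LINC02211 went the other way in the same library, with 18.2 and 26.3 CPM with DMSO, 29.8 in SF1-8 1 and 3.17 in SF1-8 2. LINC00205, which starts beside the coding gene POFUT2 on the opposite strand and has been described in hepatocellular carcinoma, spread over 16.1, 4.87, 1.08 and 30.2 CPM. LINC01278 had 14.7, 4.49, 9.81 and 11.3 CPM, being lowest in DMSO 2. Over all 153 entries, the replicates were at least 2-fold apart for 12 with DMSO and 8 with SF1-8.

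**Figure D5:**
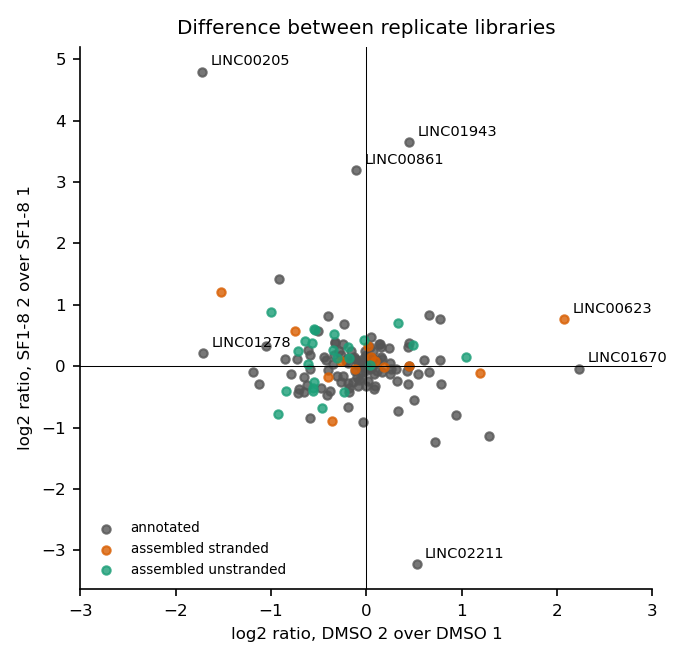
Log2 ratio of the replicate libraries within SF1-8 (vertical axis) against that within DMSO (horizontal axis), 1 point per LINC entry with counts above 0 in all libraries, coloured by kind. Most points lie near the origin, and LINC00205, LINC01943, LINC00861 and LINC02211 lie farthest along the vertical axis.

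Replicate spread was wider for LINC RNAs than for mRNAs. Among entries at 100 counts in both groups, the median absolute log2 difference between replicates was 0.25 (DMSO) and 0.19 (SF1-8) for LINC entries, and 0.13 and 0.11 for single protein-coding symbols, whose counts were higher (a median of 2266 against 416). Antisense entries had 0.25 and 0.21, with a median count of 295. At an unadjusted p under 0.05 there were 7.2% of LINC entries, 3.35% of 209 antisense entries and 3.93% of 8577 coding ones, and these shares were not tested against each other.

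The rule was reached in DMSO alone by 9 entries and in SF1-8 alone by 19, which is 18.3% of the members, against 17.4% of antisense and 3.17% of coding entries chosen in the same way. Reached in DMSO only were LINC00205, LINC00659, LINC00491, the plus-strand LINC01399 entry and the minus-strand LINC02506 entry. So were an unstranded block of LINC01203, 1 block of LINC02882 and 2 blocks of LINC00383. Reached with SF1-8 only were LINC01618, LINC02062, LINC01560, LINC00216, LINC01465, LINC02340, LINC02525, LINC02663, LINC01670, LINC01097, LINC01892, LINC01232, LINC00476, LINC01344, LINC00839 and LINC01192. So were the plus-strand LINC02864 entry, an unstranded block of LINC01619 and another block of LINC02882. These are entries and not whole symbols. Other rows of LINC01399, LINC02506, LINC01203, LINC02882, LINC00383, LINC02864 and LINC01619 reached the rule in both groups. The annotated LINC02864 entry, for example, had 2750, 3750, 3794 and 3563 counts. Leaving out the plus-strand LINC01399 entry, the log2 fold changes of entries at the rule in 1 group only ran from -1.20 to 1.41 as a description.

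The lowest of these belonged to LINC01670, on the short arm of chromosome 21, which had 86, 537, 150 and 142 counts and thus was high in DMSO 2 alone. The highest was that of LINC01232, inside the coding gene TM9SF2 on the opposite strand, with 84 and 67 counts with DMSO and 234 and 248 with SF1-8. Here the groups did not overlap. LINC01560 had 59 and 134 counts against 141 and 233, so its lowest SF1-8 library was close to its highest DMSO library.

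Counts just inside and outside the threshold showed how narrow the choice was. LINC02062 (76, 99, 100 and 131 counts), the unstranded LINC01203 block (154, 102, 77 and 138) and LINC00659 (103, 215, 73 and 127) were just inside. Just outside were LINC00243 (39, 78, 99 and 102), LINC01666 (37, 97, 113 and 98) and LINC01132 (73, 128, 98 and 126). A threshold of 50 would have given 235 members and a threshold of 200 would have given 94.

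Of the member symbols, 65 had several rows in the table, up to 17, and 60 had 1. In 19 symbols more than 1 row reached the rule, and in 11 of these the rows leaned in both directions. This count includes rows that reached the rule in 1 group only, whose direction was partly set by that selection. LINC00383, a gene on chromosome 13 with 10 rows, had 6 member rows with log2 fold changes from -0.80 to -0.062. The -0.80 came from a row that reached the rule in DMSO only, and the lowest row reaching it in both groups had -0.69. The LINC00383 sum was 1445, 1283, 1094 and 1229 counts (log2 fold change -0.49, SE 0.220, adjusted p = 0.970 by edgeR). LINC02882 had 4 member rows from -0.75 (rule reached in DMSO only) to 0.68 (in SF1-8 only). Its rows reaching the rule in both groups had -0.31 and -0.030, and its summed log2 fold change was -0.16. LINC00861 had 3 member rows, of which only the minus-strand one was high in SF1-8 2.

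The remaining symbols with several member rows were LINC00665, LINC01006, LINC01194, LINC01203, LINC01517, LINC01608, LINC01619, LINC01667, LINC01687, LINC02506, LINC02609, LINC02840 and LINC02864, and LINC00623, LINC01169 and LINC01399 are described above. After rows were summed, 108 member symbols had 100 counts or more in both groups. None had an adjusted p under 0.05 by edgeR (0.0308% of the summed table did), and 5 (4.63%) had an unadjusted p under 0.05 (4.3% of the summed table). These 5 were LINC00667, LINC00958, LINC01128, LINC02610 and LINC01572, of which LINC01572 had 497 and 384 summed counts with DMSO and 283 and 287 with SF1-8. The median summed log2 fold change was -0.018. Overlap with other genes was common: 79 of the 153 entries were overlapped by another entry of at least 100 counts, and 47 by one on the opposite strand.

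Among LINC RNAs with a described role, most were not in the set, but many had no row under their LINC name. Of 7 listed symbols reported to encode a small protein, 1 was a member, LINC00467, with 431 and 581 summed counts with DMSO and 671 and 699 with SF1-8. The other 6 had no row of that name, so their levels were not read. Of 11 symbols described in tumours, 7 were members: LINC00665, LINC00662, LINC00205, LINC00963, LINC00958, LINC01234 and LINC00467. LINC00205 reached the rule in DMSO only and was not tested, and none of the others passed the adjusted test. LINC00662 had 1151 and 1577 counts with DMSO and 1533 and 1641 with SF1-8, and LINC01234 had 742, 991, 1037 and 1039. LINC00963 had 530, 1344, 1461 and 816, with overlapping groups.

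LINC00511, LINC00324 and LINC00460 had rows below the threshold, and LINC00346 had no row of that name. None of 6 symbols described in blood cells was a member. Of these, 2 had no row of that name, and among the others LINC00173 came nearest with 78, 80, 56 and 82 counts. LINC00473, which responds to the transcription factor CREB in other cells, had no row of its name. None of 5 further listed symbols, most of them since renamed, was a member under its LINC name. LINC01138 had a row of that name below the threshold (63, 12, 46 and 15 counts), and LINC01578 lay in a merged entry.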

How the data were processed

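RNA was extracted with a column kit, depleted of ribosomal RNA and made into total-RNA libraries, per the labels. The submitters' processing notes name cutadapt, FastQC, Bowtie2, HISAT2, StringTie and hg38. Their versions, the annotation and the use of strand in counting are not given in the sources used here. The deposited table holds, for each entry and library, an estimated count and an FPKM, both made by the authors from a merged assembly. The commonest count above 0 is 4, so counting error cannot be taken from the counts. An FPKM of 0.0001 stands where the count is 0.

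Entries naming no gene (2095 entries, 0.372% of counts) were left out. Counts of the other entries were filtered (filterByExpr, 26167 kept), scaled by TMM and tested by the quasi-likelihood test of edgeR 4.0.16 in R 4.3.3 with treatment as the only term. DESeq2 1.42.0 and limma 3.58.1 on log2(FPKM + 1) or log2(FPKM + 0.1) were alternatives, as were other factors, no filter, a replicate block, counts divided by 4, each library left out and small RNA entries removed. An exact permutation test of 2 against 2 libraries cannot go below 0.333. Lengths came from count over FPKM, checked on 499 single-block entries. GENCODE version 29 gave exons. Levels were compared between entries in FPKM only. The code was tested on simulated data. Replicate numbers were not taken as pairs.

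The members and lists were chosen with earlier results of these data known. Named entries were the 6 highest in mean FPKM, the 6 largest rises and falls among entries at 100 in both groups, those called, those at 100 in 1 group only, symbols with several member rows, listed symbols and the 3 nearest on each side of the threshold. Other named entries (LINC00958, LINC02211, LINC01278, LINC01572 and overlapping neighbours) were chosen after their values were seen. Removing 1 library at a time was also applied to the summed table, as an alternative chosen after seeing the data. A sequence at LINC01169 is not reported here.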

Additional observations from a re-analysis of the deposited data

How the results depend on the processing

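The direction and the call were both kept in 184 of 197 settings of single entries and summed symbols, while 5 gained the call and 4 lost it. An entry that stayed uncalled with the same sign counts as kept, whatever the size of its change. With a library left out, log2 fold changes ran from -0.014 to 3.63 for LINC01943, -0.13 to 3.06 for the LINC00861 minus-strand entry, -0.16 to 2.23 for the LINC00861 sum and -0.010 to 0.069 for the LINC01399 sum. The 4 reversals were the lowest of each, without DMSO replicate 2 for the LINC01399 sum and without SF1-8 replicate 2 for the others. Entries called over the whole table, 11 by edgeR, were 164 by DESeq2, 31 without a filter, 17 without ribosomal and small structured RNA entries, 0 by limma with either pseudocount, and 0 to 20 with a library left out. Called LINC members, 1 by edgeR, were 3 by DESeq2, 0 by limma with either pseudocount and 0 to 3 with a library left out. The 3 by DESeq2 were the LINC01399 minus-strand entry and both LINC01169 entries (adjusted p = 0.000139 and 0.0149 by DESeq2). The adjusted p of the LINC01399 minus-strand entry ran from 1.83e-75 (DESeq2) to 0.383 (limma). Members at an unadjusted p under 0.05, 9 by edgeR, were 5 by limma on log2(FPKM + 1). With a library left out, the median log2 fold change of all LINC members tested, whatever their p-value, was -0.072 to -0.0084. Summed symbols called, 0 by edgeR, were 1 with the highest row alone and 0 to 1 with a library left out, and those at an unadjusted p under 0.05, 5 by edgeR, were 3 to 13. Without small RNA entries the members took 0.234% of DMSO and 0.240% of SF1-8 counts, and count thresholds of 50 and 200 gave 235 and 94 members. The cause of these moves was not tested, apart from the thresholds and removed libraries themselves.

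With a replicate block, 0 entries and 0 LINC members were called, and the LINC01399 minus-strand entry had an adjusted p of 0.0750 by edgeR. The libraries share only a number: the correlation of deviations of same-numbered libraries was -0.0313 over 13083 entries.

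With 2 libraries per group, low counts and unknown counting error, differences of the size of the replicate spread were not detectable. Sums over a symbol's rows do not depend on how reads were split among those rows.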

Other observations

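A further 69 entries named a LINC symbol together with other genes, because the assembly had merged neighbours, and so lay outside the set. Of these, 50 met the same count rule and 47 did so in both groups. None of the 47 had an adjusted p under 0.05 by edgeR, and 3 had an unadjusted p under 0.05, where 4.33% of all entries did. The merged entry of ACSF3, a mitochondrial acyl-CoA synthetase gene, with LINC00304 had 29 and 27.4 CPM with DMSO and 18.8 and 17.3 with SF1-8, a log2 fold change of -0.65 (SE 0.115, adjusted p = 0.633 by edgeR). The merged AC018692 and LINC01667 entry, beside the LINC01667 entries described above, had 265 and 240 CPM against 207 and 199 (log2 fold change -0.31). The entry joining LINC01138 with RNVU1-21, a variant U1 small nuclear RNA, and AC245100 had 2.50 and 2.51 CPM against 3.77 and 3.96 (log2 fold change 0.63). In each of these the groups did not overlap, as in 18.1% (lower) and 17.3% (higher) of all entries. The median log2 fold change of the 47 was -0.0099.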
